A study of Macaca mulatta with 5 samples.

Results

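Polycomb genes encode chromatin proteins that keep developmental genes silent, and 10 of their subunit transcripts were followed here through neural differentiation of rhesus macaque cells. The 10 genes were taken by name from a table of 16970 genes: EZH1, EZH2, EED, SUZ12 and JARID2 of Polycomb repressive complex PRC2, and BMI1, RING1, CBX2, CBX6 and CBX7 of PRC1. All 10 were found, 9 by their deposited symbol and EZH2 through the RefSeq peptide in its description. RNA of 5 libraries was sequenced. In 3 of them the cells were neuroepithelial stem cells (NESC), derived from monkey embryonic stem cells, at passages 5, 24 and 36. Their medium held 3 µM CHIR99021, which inhibits GSK3 and so activates WNT signalling, with 5 µM SB431542, which blocks TGF-beta receptors, 10 ng/ml bFGF and 1000 U/ml LIF. The library of radial glial progenitor cells (RGPC) came from passage 36 cells after 7 days in that medium without CHIR99021. The library of neurons came from passage 36 cells after 13 days on laminin and gelatin in a differentiation medium, for which bFGF, LIF and the inhibitors are not listed.

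PRC2 is a methyltransferase that places repressive methyl groups on a lysine of histone H3. EZH2 or its paralog EZH1 holds the catalytic site, EED binds the methyl mark and stimulates the enzyme, SUZ12 holds the complex together, and JARID2 is an accessory subunit that helps to recruit it. PRC1 carries the RING1 or RNF2 enzyme, which attaches ubiquitin to histone H2A, beside a PCGF partner such as BMI1, and in its canonical form a CBX protein that reads the PRC2 mark through a chromodomain. In mouse neural development EZH2 is the main enzyme of dividing progenitors and EZH1 persists in cells that no longer divide, while BMI1 is known for sustaining self-renewal of neural stem cells.

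The members are scattered over the genome in the deposited table. EZH2 (ENSMMUG00000013494, listed under the placeholder name MMU.2779) lies on chromosome 3 from 186122846 to 186198563, and EZH1 (ENSMMUG00000006093) on chromosome 16 from 52822565 to 52868168. CBX2 (ENSMMUG00000016416) lies on chromosome 16 from 75219918 to 75225619. CBX7 (ENSMMUG00000007845) lies on chromosome 10 from 83034520 to 83056336, and CBX6 (ENSMMUG00000004870) on the same chromosome from 82779857 to 82785605. JARID2 and RING1 are on chromosome 4, EED on chromosome 14 and BMI1 on chromosome 9. Values are per gene, so exons and isoforms were not told apart.

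The catalytic pair changed in opposite directions in neurons. Levels are in FPKM, which counts sequenced fragments per length of transcript and library size, and 3 NESC values in a row belong to passages 5, 24 and 36 in turn. EZH2 stood at 115, 83.2 and 117 FPKM in NESC, at 117 in RGPC and at 38.9 in neurons, so the neuron library alone was low. EZH1 stood at 5.92, 4.24 and 3.99 FPKM in NESC, at 9.17 in RGPC and at 15.9 in neurons, and no NESC library reached the level of RGPC. In neurons against NESC, EZH2 fell (log2 fold change −1.39 ± 0.27 SE, adjusted p = 0.0476) and EZH1 rose (1.58 ± 0.30, adjusted p = 0.0461). These p-values are from limma on log2(FPKM + 1), adjusted over all 14571 genes with at least 1 FPKM in a library. In RGPC against NESC neither passed, with 0.17 ± 0.27 for EZH2 (adjusted p = 0.795) and 0.85 ± 0.30 for EZH1 (adjusted p = 0.375).

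Both calls in neurons lay close to the threshold of 0.05. They passed by edgeR on the reads recovered from the deposited counts (adjusted p = 0.0134 for EZH2 and 0.00748 for EZH1). They were lost with a pseudocount of 0.1 (adjusted p = 0.0532 and 0.0590), with no filter on low values (0.0584 and 0.0550), for EZH2 with no variance trend (0.0522), and for both without any 1 of the NESC libraries (0.0866 to 0.130 for EZH2 and 0.0693 to 0.144 for EZH1). RGPC and neurons had 1 library each, so every p-value here measures only the spread between NESC passages. In a bulk library fewer cells of a type and less RNA per cell cannot be told apart.

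Within each library the ratio of EZH2 to EZH1 put the shift on a scale that needs no comparison of depth between libraries. The ratio was 19.4, 19.6 and 29.4 in the NESC libraries, 12.8 in RGPC and 2.44 in neurons. As a share, EZH1 made up 4.90%, 4.85% and 3.29% of the summed EZH FPKM in NESC, 7.25% in RGPC and 29.0% in neurons. EZH2 thus remained the more abundant transcript per length in all 5 libraries. On the log2(FPKM + 1) scale the difference between EZH2 and EZH1 averaged 4.21 ± 0.31 (SD, n = 3) in NESC, and its departure from that mean was −2.98 in neurons and −0.67 in RGPC. The pair was chosen with its values known, so the shift is a description without a test.

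**Figure D1:**
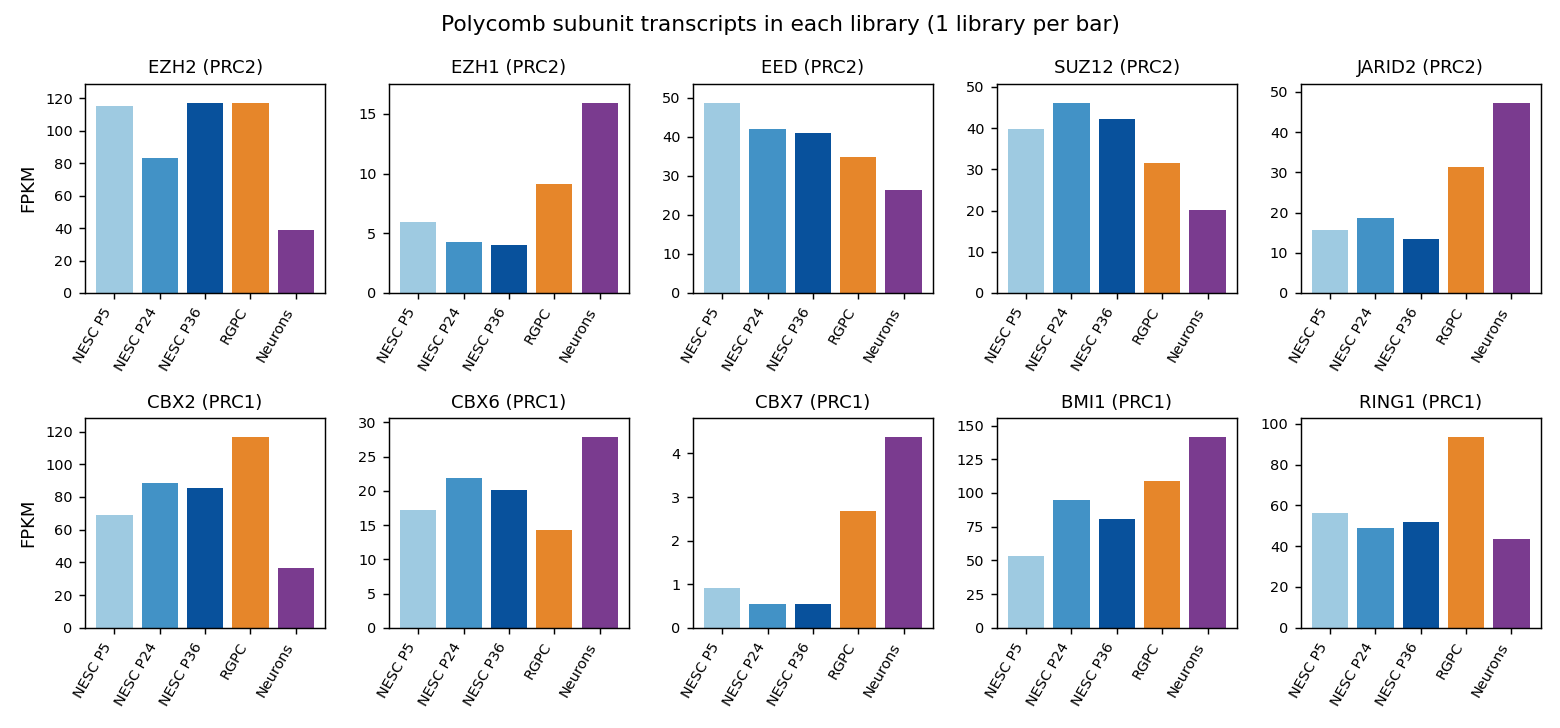
FPKM (vertical axis, from 0, a scale for each panel) of the 10 Polycomb subunits in the 5 libraries, 1 bar per library. EZH2 and CBX2 are lowest in neurons at 38.9 and 36.7 FPKM, while EZH1, JARID2, CBX7 and BMI1 stand higher in RGPC than in any NESC library and higher still in neurons.

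**Figure D2:**
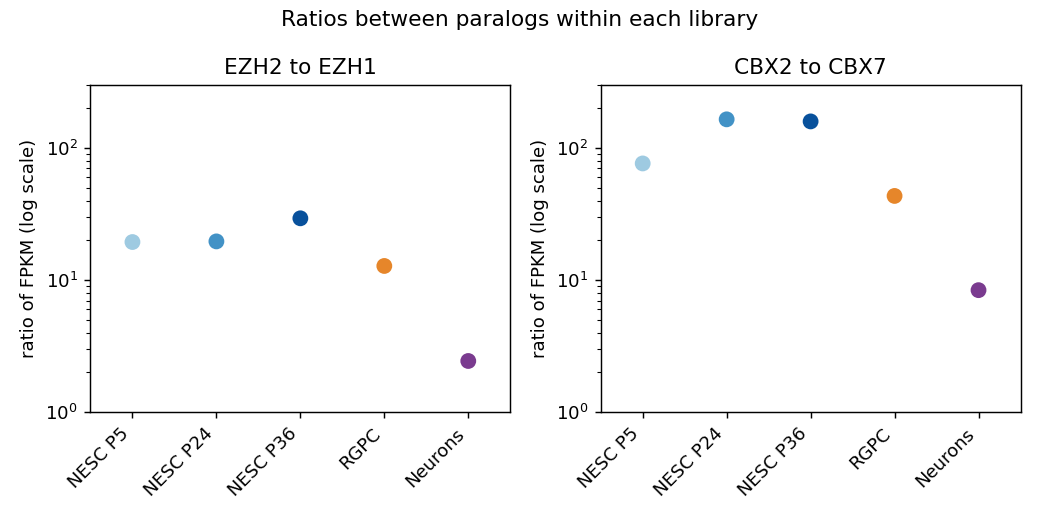
Ratio of FPKM between paralogs within each library on a log axis, EZH2 to EZH1 on the left and CBX2 to CBX7 on the right, 1 point per library. The neuron points lie at 2.44 and 8.39, below all NESC points (19.4 to 29.4 and 76.4 to 165), and the RGPC points lie between them.

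The structural subunits of PRC2 were lower in neurons as well. SUZ12 stood at 39.9, 46.2 and 42.1 FPKM in NESC, at 31.5 in RGPC and at 20.1 in neurons, each step lying below the last. It fell in neurons (−1.05 ± 0.14, adjusted p = 0.0284), and the call was lost without any 1 of the NESC libraries (adjusted p = 0.0729 to 0.105). EED stood at 48.7, 42.0 and 40.9 FPKM in NESC, at 34.9 in RGPC and at 26.5 in neurons, in the same order. Its difference in neurons did not pass (−0.70 ± 0.16, adjusted p = 0.0605), though it passed among genes with at least 20 reads (adjusted p = 0.0493), of which 39.8% were called. In RGPC neither passed, with −0.43 ± 0.14 for SUZ12 and −0.32 ± 0.16 for EED. The deposited position of SUZ12, chromosome 16 from 27000102 to 27279087, is shared with 3 other genes. The rule by which reads were divided among those genes was not given in the sources used here.

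Summed over EZH1, EZH2, EED and SUZ12, core PRC2 transcripts came to 209, 176 and 204 FPKM in NESC, 193 in RGPC and 101 in neurons. RGPC therefore lay within the NESC range of this sum and neurons below it. EZH2 held 54.9%, 47.4% and 57.4% of the sum in the NESC libraries, 60.8% in RGPC and 38.4% in neurons. The share of EZH1 went from 1.95% to 2.83% in NESC to 15.7% in neurons.

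In neurons JARID2 went the other way from EZH2, EED and SUZ12, and the same way as EZH1. It stood at 15.7, 18.7 and 13.3 FPKM in NESC, at 31.4 in RGPC and at 47.3 in neurons, with RGPC and neurons both above every NESC library. It rose in neurons (1.53 ± 0.25, adjusted p = 0.0370), a call that edgeR shared (adjusted p = 0.00676) and that was lost without any 1 of the NESC libraries (0.0945 to 0.106). In RGPC its difference of 0.95 ± 0.25 did not pass (adjusted p = 0.320). Among the 10 subunits JARID2 was the eighth by FPKM in each NESC library and the second in neurons, behind BMI1.

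Of 10 other PRC2 genes listed, 9 were in the table and were tested. In neurons 2 fell and 0 rose, and the list's median log2 fold change was −0.38 against 0.01 for all genes. These 2 of 9 stand beside 27.5% of all genes called and 13.3% called lower. PHF19, an accessory subunit that binds methylated histone H3, had 12.3, 19.2 and 19.9 FPKM in NESC, 16.0 in RGPC and 1.52 in neurons, where it fell (−2.82 ± 0.38, adjusted p = 0.0282). RBBP7, a histone-binding core subunit that other complexes also use, fell from 198, 189 and 211 FPKM to 67.6 (−1.54 ± 0.11, adjusted p = 0.0145), with 201 in RGPC. RBBP7 was also lower in neurons than in RGPC (adjusted p = 0.0298). MTF2, a paralog of PHF19, stood at 65.6, 47.8 and 56.1 FPKM in NESC, 46.3 in RGPC and 70.2 in neurons, and did not pass. The gene listed as RBBP4 had only 6 to 19 reads in any library.

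Among the CBX readers of PRC1, CBX2 and CBX7 also changed in opposite directions in neurons. CBX2 stood at 69.3, 88.3 and 85.7 FPKM in NESC, at 116 in RGPC and at 36.7 in neurons, so RGPC was the highest library and neurons the lowest. CBX7 stood at 0.907, 0.536 and 0.539 FPKM in NESC, at 2.69 in RGPC and at 4.37 in neurons, and no NESC library came near the other cell types. In neurons CBX2 fell (−1.12 ± 0.19, adjusted p = 0.0410) and CBX7 rose (1.70 ± 0.20, adjusted p = 0.0252). The CBX2 call was lost without any 1 of the NESC libraries (adjusted p = 0.0581 to 0.128). The CBX7 call held without passage 5 (0.0482) and was lost without passage 24 (0.103) and without passage 36 (0.0944). In RGPC the differences of 0.52 ± 0.19 for CBX2 and 1.16 ± 0.20 for CBX7 did not pass (adjusted p = 0.384 and 0.284).

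CBX7 rested on few reads: 15, 8 and 11 in the NESC libraries, 43 in RGPC and 61 in neurons. Exact 95% Poisson intervals, which cover counting error only, ran from 3.45 to 15.8 reads for passage 24 and from 46.7 to 78.4 reads for neurons. CBX7 was under 1 FPKM in all NESC, so it entered the test through RGPC and neurons, where it was higher. The limma call of CBX7 is therefore a description and supports nothing by itself. With a pseudocount of 1 its fold change is understated, and edgeR gave 2.73 on the log2 scale for neurons (adjusted p = 0.0106). The CBX2 to CBX7 ratio was 76.4, 165 and 159 in the NESC libraries, 43.4 in RGPC and 8.39 in neurons. On the log2(FPKM + 1) scale the difference between CBX2 and CBX7 averaged 5.63 ± 0.37 (SD, n = 3) in NESC, and the departure from that mean was −2.82 in neurons and −0.63 in RGPC. The size of these shifts depends on the low CBX7 values, since with a pseudocount of 0.1 they came to −3.72 and −1.38. Like the EZH ratio, it was chosen with its values known and was not tested.

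CBX6, another chromodomain reader, did not follow either partner. It stood at 17.1, 21.9 and 20.2 FPKM in NESC, at 14.3 in RGPC and at 27.8 in neurons, with 40 to 72 reads per library. RGPC was thus below every NESC library and neurons above every one. The differences were −0.44 ± 0.20 in RGPC and 0.48 ± 0.20 in neurons, and neither passed (adjusted p = 0.450 and 0.175).

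In the FPKM summed over CBX2, CBX6, CBX7 and CBX8, CBX2 held 69.8%, 68.6% and 71.3% in the NESC libraries, 79.6% in RGPC and 39.5% in neurons. The other readers took larger shares of the neuron library, with 29.9% for CBX6, 25.9% for CBX8 and 4.70% for CBX7. Despite its fold change CBX7 therefore stayed the least abundant of these 4 in every library. The sum itself was 99.2, 129 and 120 FPKM in NESC, 146 in RGPC and 92.9 in neurons, so RGPC lay above the NESC range and neurons below it.

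CBX2 and CBX8, another chromodomain reader, are neighbours on chromosome 16, with 10.1 kb between their deposited positions and no gene of the table in that gap. They stood on opposite sides of their NESC ranges in neurons. CBX8 stood at 11.9, 17.9 and 13.7 FPKM in NESC, at 12.8 in RGPC and at 24.1 in neurons, where CBX2 was at its lowest. CBX8 did not pass (0.71 ± 0.30, adjusted p = 0.171). CBX6 and CBX7 lie 249 kb apart on chromosome 10. The build of these positions was not given in the sources used here.

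**Figure D3:**
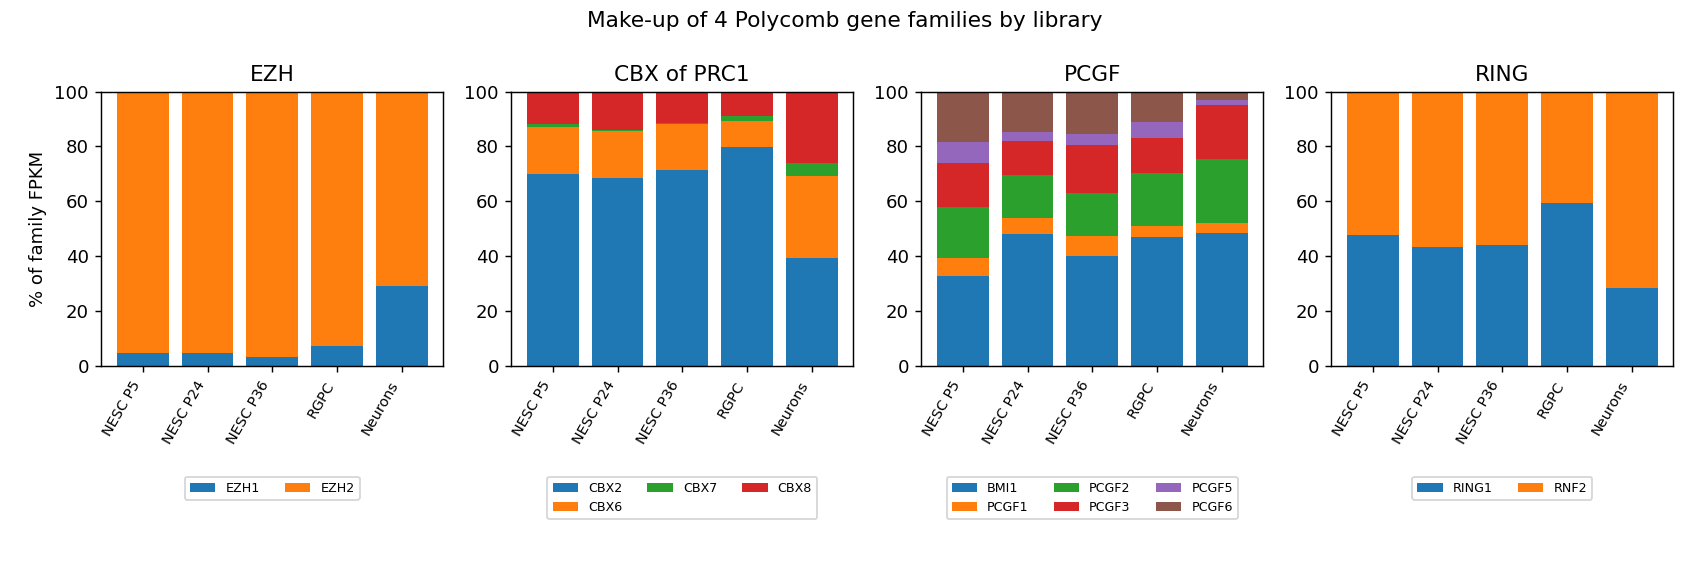
Share of each gene in the FPKM summed over its family (vertical axis, percent), 1 bar per library, for EZH, 4 CBX genes of PRC1, PCGF and RING genes. In neurons EZH1 holds 29.0% of the EZH sum, and CBX2 holds 68.6% to 71.3% of the CBX sum in NESC and 39.5% in neurons.

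BMI1, the PCGF partner that stimulates the RING enzyme, was the most abundant of the 10 subunits in neurons. It stood at 53.3, 94.6 and 80.6 FPKM in NESC, at 109 in RGPC and at 141 in neurons. The order ran upward across the cell types, but passage 5 and passage 24 differed 1.78-fold among themselves. In normalized counts these passages stood at 371 and 548, a smaller gap. The differences of 0.55 ± 0.40 in RGPC and 0.92 ± 0.40 in neurons did not pass (adjusted p = 0.591 and 0.180), though edgeR called the second (1.03, adjusted p = 0.0291). BMI1 held 32.8% to 48.2% of the PCGF sum in the NESC libraries, 46.9% in RGPC and 48.6% in neurons. PCGF2, its closest paralog, rose in neurons from 29.7, 30.9 and 31.6 FPKM to 68.4 (1.13 ± 0.11, adjusted p = 0.0198), with 45.4 in RGPC. The ratio of BMI1 to PCGF2 was 1.79, 3.07 and 2.55 in NESC and 2.06 in neurons, within the NESC range.

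RING1 peaked in RGPC. It stood at 56.5, 48.8 and 52.0 FPKM in NESC, at 93.4 in RGPC and at 43.5 in neurons, and the narrow NESC range set RGPC apart. The difference of 0.82 ± 0.13 in RGPC did not pass over all genes (adjusted p = 0.270), nor did −0.26 ± 0.13 in neurons (adjusted p = 0.226). Its paralog RNF2, the other ubiquitin ligase of PRC1, was flat through the progenitors at 61.8, 63.7 and 65.7 FPKM in NESC and 63.6 in RGPC, and rose to 110 in neurons (0.78 ± 0.09, adjusted p = 0.0253). edgeR did not call RNF2 (adjusted p = 0.0620). RING1 thus made up 43.4% to 47.7% of the pair in the NESC libraries, 59.5% in RGPC and 28.3% in neurons.

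Counted together, 6 of the 10 subunits passed in neurons against NESC: EZH1, JARID2 and CBX7 rose, and EZH2, SUZ12 and CBX2 fell. Without CBX7, which entered through the libraries where it was high, it was 5 of 9. The background in that comparison was 27.5% of all genes called, with 14.3% higher and 13.3% lower. By edgeR, which called 36.6% of its genes, it was 7 of 10: the same 6, CBX7 included, and BMI1. The count fell to 1 without passage 5 and to 0 without passage 24 or without passage 36. Over all genes the calls fell from 4013 to 886, 0 and 0 in the same order. All 10 subunits lay outside the NESC range in neurons, 5 above it, where 41.1% of all genes did, and 5 below it, where 38.2% did.

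**Figure D4:**
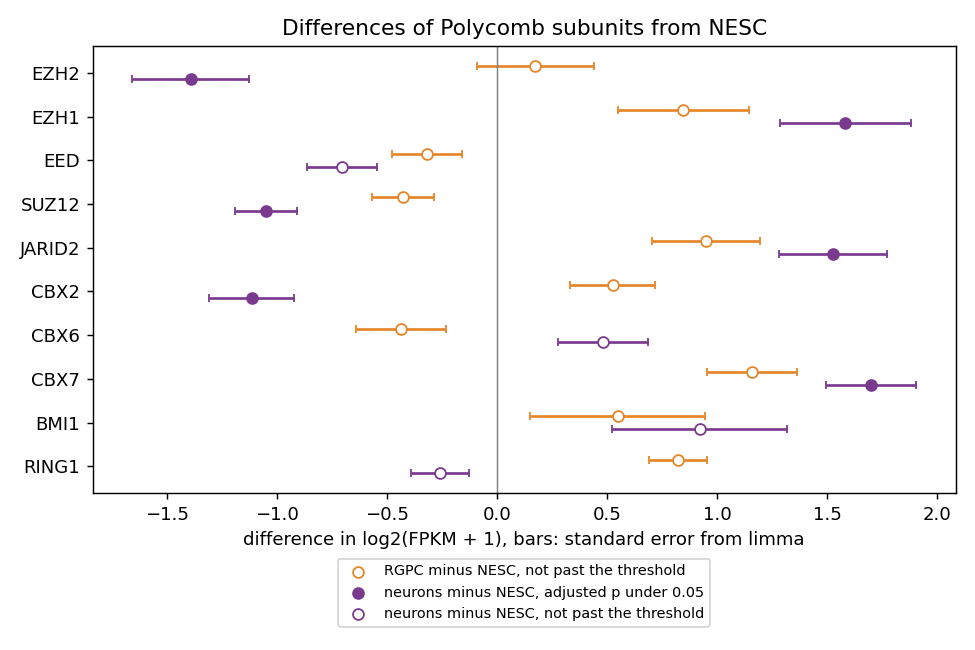
Difference in log2(FPKM + 1) from NESC (horizontal axis) for each subunit in RGPC and in neurons, with bars for the standard error from limma. Filled points passed with adjusted p under 0.05: 6 of 10 in neurons, at −1.39 to −1.05 and 1.53 to 1.70, and none in RGPC. The point at 1.70 is CBX7, which entered the test only through libraries where it was high.

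In RGPC against NESC, 0 of the 10 passed by limma, with 3 at an unadjusted p under 0.05, and 0 by edgeR, with 4 at an unadjusted p under 0.05. Over all genes 0.727% were called by limma and 0% by edgeR, and 14.1% and 12.7% had an unadjusted p under 0.05. In this comparison 7 subunits lay above the range of the NESC libraries, where 38.2% of all genes did, and 3 lay below it, where 22.4% did. EZH2 was barely above it, with 117.3 FPKM against 117.1 in passage 36. The median log2 fold change was 0.54 over the 10 subunits and 0.10 over all genes. That median of all genes moved by −0.13 under quantile normalization, and 7 subunits were still higher and 3 lower.

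Only CBX7 was at least 2-fold higher in RGPC on the log2(FPKM + 1) scale and outside the NESC range, as were 7.82% of all genes. Lined up as NESC, RGPC and neurons, EZH1, JARID2, BMI1 and CBX7 were above NESC in RGPC and higher again in neurons. These are 4 of 10, where 19.0% of all genes did so. EED and SUZ12 were below NESC in RGPC and lower again in neurons, 2 of 10, where 13.8% of all genes did so. EZH2, CBX2 and RING1 had their highest level in RGPC and their lowest in neurons, and CBX6 had the reverse. The share of all genes with either of these orders was not counted, so they are descriptions only. RGPC and neurons were set against the same NESC libraries, so these orders are not independent comparisons.

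Neurons and RGPC were compared with each other in the same fit. None of the 10 subunits passed by limma, which called 7.56% of all genes, and 5 had an unadjusted p under 0.05, as had 32.0% of all genes. By edgeR 2 passed, EZH2 (−1.46, adjusted p = 0.0398) and CBX2 (−1.58, adjusted p = 0.0385), where 12.2% of all genes were called and 6.71% were called lower. By edgeR 3 subunits and 30.5% of all genes had an unadjusted p under 0.05. Among genes with at least 20 reads limma called CBX2 (adjusted p = 0.0261), EZH2 (0.0398) and RING1 (0.0414), all lower in neurons, where 15.1% of those genes were called and 8.89% were called lower. On the deposited values these were −1.64 ± 0.24 for CBX2, −1.57 ± 0.33 for EZH2 and −1.08 ± 0.16 for RING1. With 1 library in each group, the error again comes from the NESC passages.

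The subunits also varied among NESC passages. The highest library exceeded the lowest by 1.16-fold for SUZ12 and RING1, 1.19-fold for EED, 1.28-fold for CBX2 and CBX6, 1.41-fold for EZH2 and JARID2, 1.48-fold for EZH1, 1.69-fold for CBX7 and 1.78-fold for BMI1. These are ratios of FPKM. By normalized counts passage 24 was the lowest NESC library for SUZ12 (590, 567 and 601), while by FPKM it was the highest. Between passage 5 and the later passages BMI1 differed by −0.70 ± 0.16 in limma (adjusted p = 0.502) and by −0.54 in edgeR, and CBX7 by 0.31 and 0.65. None of the 10 passed by limma or by edgeR in that comparison, and 0 had an unadjusted p under 0.05 by either. limma called 0% of all genes and edgeR 0.390%, and 10.0% and 11.7% had an unadjusted p under 0.05. This comparison has 1 residual degree of freedom.

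The remaining PRC1 genes were read against the 27.5% of all genes called in neurons, and their counts of calls by limma did not exceed that share. Of 8 other canonical PRC1 genes, 7 were higher, 2 of which rose (PCGF2 and RNF2), and 0 fell, with a median of 0.75 against 0.01 for all genes. PHC1, a polyhomeotic subunit that links PRC1 complexes, stood at 28.9, 22.1 and 27.9 FPKM in NESC, 37.7 in RGPC and 55.9 in neurons (1.07 ± 0.21, adjusted p = 0.0504), and edgeR called it (adjusted p = 0.0127). Of 19 genes of variant PRC1, which lacks CBX readers, 11 were higher and 8 lower, and 2 rose and 1 fell. By edgeR, which called 36.6% of all genes, 4 rose and 1 fell. BCOR, a scaffold of the variant with PCGF1, rose from 16.4, 15.6 and 20.1 to 45.1 FPKM (1.34 ± 0.21, adjusted p = 0.0358). YAF2, which replaces CBX proteins on RING1 and RNF2, rose from 16.1, 18.8 and 16.0 to 37.5 FPKM (adjusted p = 0.0345). PCGF6, the PCGF subunit of another variant complex, fell from 30.1, 28.6 and 31.3 to 9.01 FPKM (−1.63 ± 0.13, adjusted p = 0.0173). It was also lower in neurons than in RGPC (adjusted p = 0.0441). AUTS2, a neuronal partner of PRC1, stood at 25.3, 34.8 and 48.8 FPKM in NESC, 76.5 in RGPC and 123 in neurons, and did not pass by limma (1.78 ± 0.43, adjusted p = 0.0694), though edgeR called it (1.75, adjusted p = 0.0139).

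Enzymes that oppose Polycomb, and their partner proteins, were also examined. In the PR-DUB complex, which removes ubiquitin from histone H2A, 2 of 10 genes rose in neurons and 0 fell, where 14.3% of all genes were called higher and 27.5% in either direction. ASXL3, one of its scaffolds, rose from 1.60, 0.819 and 0.921 to 20.4 FPKM, with 3.47 in RGPC (3.36 ± 0.30, adjusted p = 0.0186). MBD5, a protein that binds PR-DUB, rose from 3.96, 4.94 and 5.95 to 17.0 FPKM (adjusted p = 0.0430). Of 10 genes of H3 lysine demethylases, trithorax methyltransferases and their cofactors, 9 were higher in neurons, with a median of 0.96. Of these 1 rose, KMT2C, a histone H3 methyltransferase (adjusted p = 0.0405). By edgeR 5 of the 10 rose, where 36.6% of all genes were called in either direction. KDM6B, which removes the PRC2 mark, stood at 8.10, 8.30 and 18.3 FPKM in NESC, 15.2 in RGPC and 50.8 in neurons (2.14 ± 0.59, adjusted p = 0.0850), and edgeR called it (adjusted p = 0.0129). The heterochromatin paralogs CBX1, CBX3 and CBX5, which bind another histone mark, gave 0 calls among 3 in neurons by limma, with 0 at an unadjusted p under 0.05, and 0 by edgeR, with 1.

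In RGPC 0 of the 59 genes tested in these 6 lists of Polycomb-related genes passed by limma and 0 of 58 by edgeR. By each, 6 had an unadjusted p under 0.05, where 14.1% of all genes did by limma and 12.7% by edgeR. The PR-DUB list had 9 of 10 genes higher there, with a median of 0.88 against 0.10 for all genes. The list of H3 demethylases and trithorax genes also had 9 of 10 higher, with a median of 0.49. OGT, a sugar transferase of this complex, stood at 67.1, 65.9 and 62.5 FPKM in NESC, at 125 in RGPC and at 68.4 in neurons, a peak in the same library as RING1. CBX2 was highest there too, and 38.2% of all genes lay above the NESC range in RGPC.

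**Figure D5:**
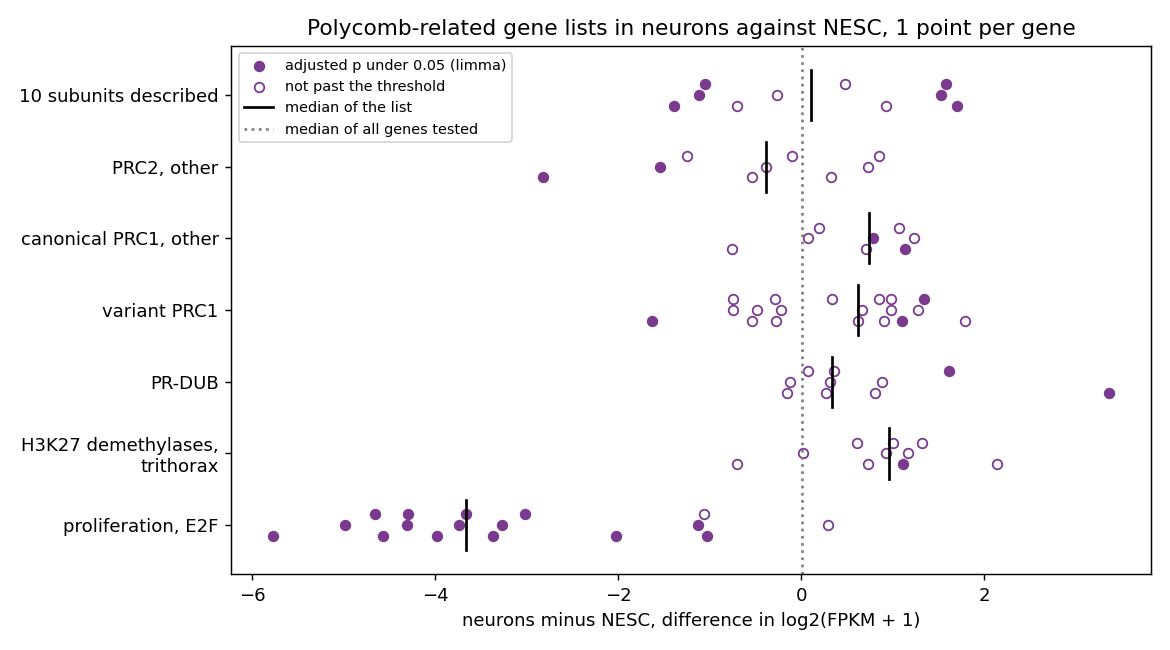
Difference in log2(FPKM + 1) of neurons from NESC (horizontal axis) for each gene of 7 lists, 1 point per gene, filled where adjusted p was under 0.05 by limma. Black bars mark list medians: 0.75 for other canonical PRC1 genes, −0.38 for other PRC2 genes and −3.66 for the proliferation list.

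Genes that Polycomb is known to repress in other cell types were poorly covered, with 9 of 16 in the table and 6 tested. PAX2, a midbrain and hindbrain factor, stood at 0.372, 0 and 0.148 FPKM in NESC, at 0 in RGPC and at 47.9 in neurons, with 2, 0, 1, 0 and 206 reads. PAX2 entered the test only through the neuron library, where it was high, so its values are a description and its call supports nothing. The cell cycle inhibitor CDKN1A fell from 151, 203 and 194 to 32.1 FPKM (−2.47 ± 0.23, adjusted p = 0.0193), with 50.7 in RGPC. CDKN2B, a neighbour of the CDKN2A gene in mammals and a known target of BMI1 and CBX7, had 1, 3 and 10 reads in the NESC libraries, 6 in RGPC and 30 in neurons, and did not pass (adjusted p = 0.0504). It too reached 1 FPKM only in neurons.

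Proliferation genes were also lower in neurons, where EZH2 and CBX2 fell. The 17 genes of a proliferation and E2F list in the table summed to 2263, 2061 and 2592 FPKM in NESC. Their sum was 2390 FPKM in RGPC and 204 in neurons. In neurons 15 of them fell, where 13.3% of all genes were called lower. In mouse and human cells EZH2 is a known target of E2F factors. Against the NESC mean, neurons held 8.83% of the summed proliferation FPKM, 37.1% of EZH2, 45.2% of CBX2, 47.0% of SUZ12 and 60.3% of EED. PHF19 was at 8.88%. Of the 17 proliferation genes 13 kept a lower percentage than EZH2. The part of this difference in the Polycomb values was not tested.

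Markers of cell identity moved as well. Neuron markers summed to 538, 386 and 348 FPKM in NESC, 878 in RGPC and 4710 in neurons over 10 genes, of which RBFOX3 was listed at 0 in neurons. The 7 neuroepithelial markers summed to 841, 1177 and 1085 FPKM in NESC, 1159 in RGPC and 368 in neurons. In neurons 3 of them fell, NES to 114, LIN28A to 6.16 and PROM1 to 1.74 FPKM. DACH1 rose to 59.8 FPKM (2.23, adjusted p = 0.0359), while SOX2, at 105 FPKM, did not pass. Over all genes 13.3% were called lower in neurons and 14.3% higher. The 7 radial glia markers summed to 2730 to 3655 FPKM in the NESC libraries, 4561 in RGPC and 2047 in neurons. VIM and FABP7 make up most of that sum, at 824 and 704 FPKM in neurons, and neither passed by limma, though edgeR called VIM lower (adjusted p = 0.0229). The less abundant SLC1A3 (2.97, adjusted p = 0.0433) and SOX9 (2.76, adjusted p = 0.0431) rose in neurons, to 199.8 and 31.2 FPKM. Of 7 astrocyte and oligodendrocyte markers the sum was 11.6 to 32.4 FPKM in NESC, 74.7 in RGPC and 49.7 in neurons, and GFAP, the astrocyte filament, had 0 reads in NESC, 2 in RGPC and 5 in neurons. Mesenchymal, crest and endothelial markers summed to 4.72 to 42.5 FPKM in NESC, 6.95 in RGPC and 10.1 in neurons, and 4 of these 7 genes were listed at 0 in neurons (COL1A1, COL3A1, CDH5 and FOXD3). Of 5 pluripotency markers only POU5F1 was in the table, with at most 2 reads in any library. The part of such cells in the Polycomb values was not tested.

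By pattern over the 5 libraries, the genes closest to each of the paralogs were sought among 8926 genes with a symbol and at least 100 reads, by the root mean square difference of log2(FPKM + 1) centred on each gene's mean. Closest to EZH2 were CDC7, a kinase that starts DNA replication, at a difference of 0.040, C10H20orf72 at 0.072 and FAM98B at 0.076. CDC7 stood at 49.4, 34.2 and 50.8 FPKM in NESC, 47.0 in RGPC and 15.8 in neurons, a drop at passage 24 included. Closest to EZH1 were HECW2 at 0.065, the potassium channel KCND1 at 0.069 and SMCR7 at 0.075. Closest to CBX2 were PLIN3, a lipid droplet protein, at 0.053, the transcription factor ZEB2 at 0.073 and the cadherin FAT1 at 0.075. Closest to CBX7 were the receptor kinase GRK5 at 0.067, IGSF9B at 0.071 and ARHGAP35 at 0.085. With 5 libraries many genes share an order, and these are descriptions only.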

How the data were processed

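RNA was sequenced in 5 libraries, and reads were aligned with TopHat2 2.0.9, per the submitters' processing notes. The quantifying program, genome build and annotation were not given in the sources used here. Values in FPKM were deposited by the authors, per the file headers, while RPKM is the word in the table's title. They also deposited a normalized count per gene, a signal equal to the gene's reads times 1 factor per library. Undoing the factor returned whole numbers, to a tolerance of 0.1 read, everywhere in 4 libraries and with 1 exception in passage 36 NESC, and libraries held 5403437 to 7899991 reads. The 10 subunits had 8 to 2480 reads. Their FPKM per normalized count was not constant between libraries. It varied 1.21-fold for BMI1 and SUZ12, 1.20-fold for CBX6 and less for the others, and the cause was not tested.

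Genes were tested with limma 3.58.1 (trend form, R 4.3.3) on log2(FPKM + 1), two-sided, with Benjamini-Hochberg adjustment over the 14571 genes with at least 1 FPKM in a library. A model with 3 groups gave the comparisons of cell types (2 residual degrees of freedom) and a model with 4 groups that of passages. Values after ± are standard errors unless marked SD. Replicates of NESC are passages, and no label says that they were separate cultures. Their spread therefore includes differences between passages, and part of it may be technical. These parts cannot be told apart here. edgeR 4.0.16 (quasi-likelihood test) on the recovered reads called 4780 of 13063 genes in neurons against NESC. The other alternatives were another pseudocount, other filters, other scalings, no variance trend, fewer groups, and fits that lacked 1 NESC library. The functions were tested on simulated data.

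The subunits, lists, comparisons and alternatives were chosen with earlier results of these data known. From each list the 4 genes with at least 20 reads and the largest change were eligible to be named; RNF2, CBX8, MTF2, RBBP4, OGT, SOX2, FABP7, GFAP and POU5F1 were added after their values were seen. A listed gene is not reported here and was left out of the list counts and family sums. A comparison of levels between genes uses FPKM. Depth limits CBX6 and CBX7 most. No sequences were printed.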

Additional observations from a re-analysis of the deposited data

How the results depend on the processing

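Over 11 alternatives the direction of each subunit was kept in RGPC against NESC, in neurons against NESC and in neurons against RGPC. Several of these could not have reversed it. The other filters, no variance trend and fewer groups leave the difference itself unchanged and alter only its p-value. In neurons against RGPC, leaving out a NESC library leaves the difference unchanged too. In passage 5 against later passages 3 small differences reversed: EZH2 to −0.026 without passage 24 (0.46 without passage 36), SUZ12 to 0.018 by edgeR, and JARID2 to 0.046 after quantile normalization, 0.015 with median-of-ratios scaling and 0.22 without passage 24 (−0.24 without passage 36). Subunits called in neurons against NESC numbered 0 to 1 when 1 NESC library was left out (6 with all), and genes called 0 to 886. For neurons against RGPC the genes called were 0 to 569 in those fits, 1896 with no filter and 1836 with at least 20 reads (1101 as reported), and the subunits called were 3 with at least 20 reads, 2 by edgeR and 1 after quantile normalization. For RGPC against NESC the 106 genes called became 296 with no filter, 56 without a variance trend, and 0 with at least 20 reads, by edgeR and in each fit without a NESC library (0 to 0). The lower counts without a library come with 1 residual degree of freedom in place of 2, and for the other changes the cause was not tested. The log2 shift of the CBX2 to CBX7 ratio went from −2.82 to −3.72 with a pseudocount of 0.1 and −3.93 on reads in neurons, and from −0.63 to −1.38 and −1.53 in RGPC, since a pseudocount of 1 compresses the low CBX7 values. No paired analysis was possible, because passage 36 was the only passage that every group shared. RGPC and neurons came from passage 36 alone and were set against all NESC passages. Cell type and passage are thus partly confounded in these comparisons. With only the compared groups, neurons against RGPC could not be tested, having 1 library each, nor could passages with passage 24 or 36 left out.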
